A study of Homo sapiens with 4 samples.

Results

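The genes described here encode subunits of the ring-shaped SMC complexes that fold chromosomes. They are 10 of the 58037 genes in the count table: SMC1A, SMC3, RAD21, STAG2 and NIPBL for cohesin, and SMC2, SMC4, NCAPD2, NCAPG and NCAPH for condensin, found by the Ensembl identifiers that map to these symbols. mRNA was measured by RNA-Seq in OCI-AML3, an established human AML cell line with a heterozygous NPM1 mutation (mtNPM1) and mutations in DNMT3A and NRAS. Both groups share the DNMT3A and NRAS mutations, and the mutant NPM1 allele is what sgNPM1A targets. Cells were harvested 3 days (72 hours) after transfection with a control guide (sgRNA Ctrl, sgNeg in the labels; 2 libraries) or with sgNPM1A, a guide against the mutant NPM1 allele (mtNPM1 KO; 2 libraries). The transfected cells were analysed as bulk populations of a single cell line and not as clones. Bulk counts cannot tell fewer cells of a type from less mRNA per cell.

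Cohesin holds sister chromatids together from S phase to anaphase and extrudes chromatin loops in interphase, in part at sites bound by CTCF. Its ring is made of SMC1A, SMC3 and the kleisin RAD21, to which a STAG subunit binds, and NIPBL with MAU2 loads the ring onto DNA. Condensin compacts chromosomes for mitosis. SMC2 and SMC4 form its core in both condensin I, completed by NCAPD2, NCAPG and NCAPH, and condensin II, completed by NCAPD3, NCAPG2 and NCAPH2.

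The libraries held between 25069484 and 28276391 counts, and 15718 genes passed the filter on low counts, all 10 subunit genes among them. NPM1, the targeted gene, had 1319 and 1385 CPM (counts scaled to library size after TMM normalization) with sgRNA Ctrl and 1189 and 1132 CPM with sgNPM1A. sgNPM1A over sgRNA Ctrl gave it a log2 fold change of -0.22 (SE, the standard error, 0.07, with an adjusted p = 0.0360 by edgeR's quasi-likelihood test with Benjamini-Hochberg adjustment), which is short of the fold threshold of 1.25. The gene counts sum the mutant and wild-type alleles, so they cannot show how many alleles were edited. Of the markers of this myeloid line, PTPRC, CD33 and ANPEP were at 78.9 to 167 CPM with sgRNA Ctrl and MPO at 3.02 CPM. MPO was at 10.3 CPM and ANPEP at 111 CPM with sgNPM1A, log2 fold changes of 1.77 and 0.49 (adjusted p = 7.52e-06 and 0.000528, edgeR). Of the markers of other cell types, MS4A1, CD3E, EPCAM and HBB had 0 counts in every library, which allows up to 0.118 CPM, counting error only. COL1A1 was at 0.175 CPM with sgRNA Ctrl. The part of the MPO and ANPEP differences in the levels of the subunit genes was not tested.

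The promoters of the subunit genes that the values below turn on are shown first, as RefSeq gives them on GRCh38.p14, from 250 bases before a start site to 50 bases from it on. The most upstream window listed for each gene was used. For SMC2 it lies downstream of the outermost start of the gene, at 104088263, which has no listed window. Each lies on the plus strand: SMC4 and SMC2, the condensin core pair, at chr3:160399400-160399699 and chr9:104094059-104094358, NCAPG and NCAPD2 of condensin I at chr4:17810729-17811028 and chr12:6493852-6494151, and the cohesin loader NIPBL at chr5:36876519-36876818. Capitals mark matches, on either strand, to 3 motifs known from cell cycle promoters: the cell cycle genes homology region (CHR, searched as TTTGAA or TTCGAA), the CCAAT box (CCAAT) and an E2F-like site (GCGGGAA or GCGCCAA).
SMC4: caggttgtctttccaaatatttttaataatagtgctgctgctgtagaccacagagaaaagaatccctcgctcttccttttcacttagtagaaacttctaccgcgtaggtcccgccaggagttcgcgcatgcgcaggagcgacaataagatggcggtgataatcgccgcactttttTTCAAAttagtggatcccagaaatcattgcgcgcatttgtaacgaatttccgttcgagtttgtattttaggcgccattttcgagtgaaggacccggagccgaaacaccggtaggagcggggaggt
SMC2: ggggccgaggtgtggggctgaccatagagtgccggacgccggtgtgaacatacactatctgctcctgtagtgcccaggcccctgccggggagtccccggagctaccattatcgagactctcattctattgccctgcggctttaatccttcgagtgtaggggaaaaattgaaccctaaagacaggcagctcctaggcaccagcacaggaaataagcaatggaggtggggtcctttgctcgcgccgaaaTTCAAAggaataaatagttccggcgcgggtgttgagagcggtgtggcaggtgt
NCAPG: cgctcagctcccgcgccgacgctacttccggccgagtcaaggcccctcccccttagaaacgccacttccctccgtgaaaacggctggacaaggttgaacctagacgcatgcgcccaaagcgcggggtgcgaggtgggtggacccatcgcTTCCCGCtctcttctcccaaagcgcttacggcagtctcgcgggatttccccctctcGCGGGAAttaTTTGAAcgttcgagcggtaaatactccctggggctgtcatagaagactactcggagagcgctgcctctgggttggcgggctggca
NCAPD2: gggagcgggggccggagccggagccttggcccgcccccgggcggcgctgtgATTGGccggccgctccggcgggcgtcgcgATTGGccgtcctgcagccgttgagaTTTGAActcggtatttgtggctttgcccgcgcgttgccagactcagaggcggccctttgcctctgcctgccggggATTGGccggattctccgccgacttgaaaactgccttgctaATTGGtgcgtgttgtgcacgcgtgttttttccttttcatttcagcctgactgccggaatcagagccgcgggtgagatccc
NIPBL: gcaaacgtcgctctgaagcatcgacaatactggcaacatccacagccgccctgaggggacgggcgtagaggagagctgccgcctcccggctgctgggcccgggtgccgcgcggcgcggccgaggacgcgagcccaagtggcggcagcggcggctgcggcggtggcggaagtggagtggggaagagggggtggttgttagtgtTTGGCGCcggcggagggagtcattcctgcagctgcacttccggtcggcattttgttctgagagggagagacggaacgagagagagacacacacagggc

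Promoter windows were found for 9 of the 10 subunit genes. A CHR match stood in 4 of the 5 condensin windows and in 1 of the 4 cohesin windows, SMC3, against 16.7% of 27303 promoter windows of the same length. Its first base lay 75 bases before the start site in SMC4, 35 before it in NCAPG, 145 before it in NCAPD2 and, for the SMC2 start site used here, 3 before it. NCAPH held no CHR match. CCAAT stood in 2 condensin windows, 4 times in NCAPD2 and 1 time in NCAPH, and in 1 cohesin window, STAG2, against 35.7% of all windows. The E2F-like letters stood in NCAPG and NIPBL, against 9.30% of all windows. None of the marked matches overlap each other. These are matches of letters and were not tested for binding.

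SMC4 stood furthest from the control among the 10 genes. It encodes the SMC subunit that pairs with SMC2 in both condensins (ENSG00000113810, chromosome 3 of GRCh38 from 160399650 to 160434953). The sgRNA Ctrl libraries had 10718 and 11051 counts of SMC4 and the sgNPM1A libraries 6481 and 5860. In TMM-normalized CPM these were 422 and 427 against 233 and 211. Both sgNPM1A libraries were thus well below both controls. The mean level went from 424 ± 3.57 CPM (SD, n = 2) to 222 ± 15.2 CPM (SD, n = 2), 47.6% lower. The log2 fold change was -0.94 (SE 0.07), which ranks 678 from the lowest of 15718 genes. The subunit genes were proposed for description with this contrast known, so their fold changes are given without a p-value.

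NIPBL encodes the factor that loads cohesin and stimulates its ATPase (ENSG00000164190, chromosome 5 from 36876769 to 37066413). Its levels were 221 and 222 CPM with sgRNA Ctrl and 169 and 173 CPM with sgNPM1A. The libraries of each group were close to each other and the groups did not overlap. From 222 ± 0.957 CPM (SD, n = 2) the mean went to 171 ± 2.88 CPM (SD, n = 2), 23.0% lower, which gave a log2 fold change of -0.37 (SE 0.06). SMC4 and NIPBL were the 2 subunit genes that met both the adjusted p and the fold threshold, 20.0% of 10, against 20.8% of all tested genes called in either direction with 10.3% called lower and 10.5% higher. All 10 log2 fold changes were below 0. As the genes were chosen on this contrast, nothing is read from that count.

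**Figure D1:**
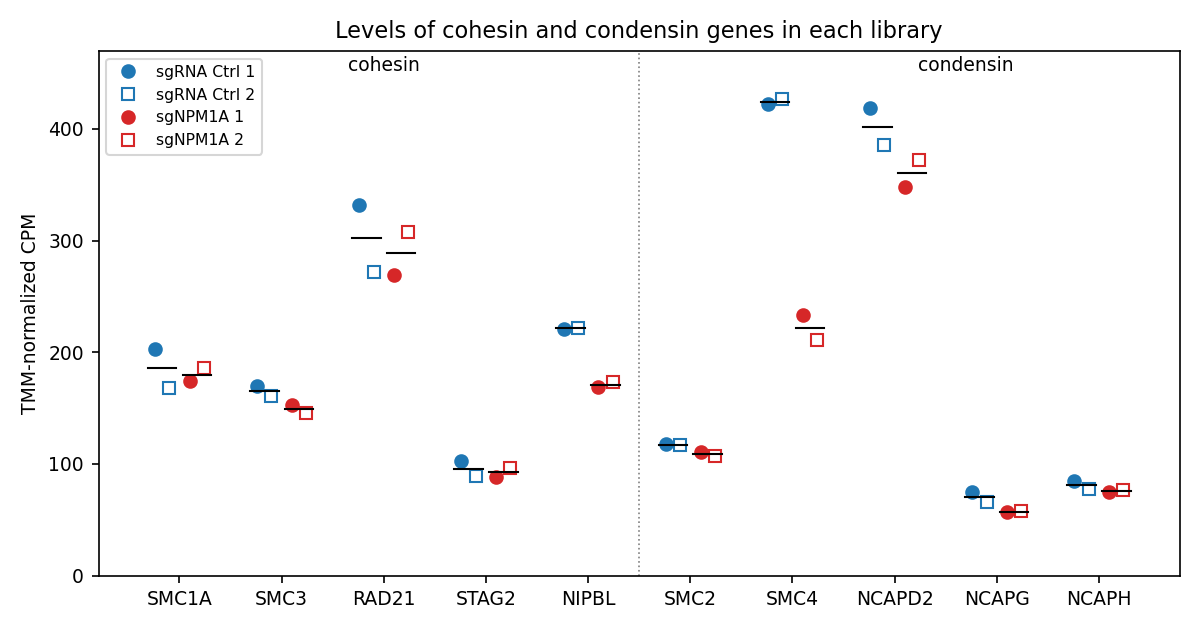
TMM-normalized CPM (y axis, linear from 0) of the 5 cohesin and 5 condensin genes in each of the 4 libraries. Blue marks are sgRNA Ctrl and red marks sgNPM1A, circles replicate 1 and squares replicate 2, and black bars are group means; SMC4 lies at 422 and 427 CPM with sgRNA Ctrl and at 233 and 211 CPM with sgNPM1A, while RAD21, SMC1A and STAG2 overlap between the groups.

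The ring subunits of cohesin did not separate in this way. SMC1A, one of its ATPase arms (ENSG00000072501), was at 203 and 168 CPM with sgRNA Ctrl and at 174 and 186 CPM with sgNPM1A. RAD21, the kleisin that separase cleaves at anaphase (ENSG00000164754), was at 332 and 272 CPM with sgRNA Ctrl and at 269.6 and 308 CPM with sgNPM1A. STAG2, the more abundant of the mitotic STAG subunits here (ENSG00000101972), was at 103 and 89.1 CPM against 88.5 and 96.2 CPM. In all 3 of these genes the groups overlapped. Their log2 fold changes were -0.05 (SE 0.09) for SMC1A, -0.07 (0.10) for RAD21 and -0.05 (0.08) for STAG2. The difference between the control libraries was larger than that between the groups, with log2 ratios of sgRNA Ctrl 1 to sgRNA Ctrl 2 of 0.27, 0.29 and 0.21 in the same order. Leaving out 1 library at a time moved SMC1A between -0.18 and 0.09, RAD21 between -0.20 and 0.08 and STAG2 between -0.15 and 0.05, so that the direction of these 3 depended on which library was included. Without sgRNA Ctrl 1 they were above 0.

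SMC3, the other ATPase arm of cohesin (ENSG00000108055), was at 169.7 and 161 CPM with sgRNA Ctrl and at 153 and 146 CPM with sgNPM1A. The groups did not overlap and the log2 fold change was -0.15 (SE 0.07). Of the 50-base words of its transcripts, 2.25% also occur in other genes, mostly the pseudogene SMC3P1. Over the 5 cohesin genes the median log2 fold change was -0.07, with a range from -0.37 (NIPBL) to -0.05, against a median of 0 over all tested genes.

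In condensin the remaining genes differed less than SMC4, and all on the lower side. NCAPG, a HEAT-repeat subunit of condensin I (ENSG00000109805), was at 75.1 and 66.4 CPM with sgRNA Ctrl and at 56.8 and 58.0 CPM with sgNPM1A. Its log2 fold change of -0.30 (SE 0.08) was short of the fold threshold, which is 0.32 on the log2 scale. It was past that threshold, and 2 condensin genes were called, without sgRNA Ctrl 2 (-0.39) and with library size only (-0.34), while without sgRNA Ctrl 1 it was -0.21. NCAPD2, the other HEAT-repeat subunit of condensin I (ENSG00000010292), had 419 and 386 CPM against 348 and 372 CPM, a log2 fold change of -0.16 (SE 0.07). SMC2, the partner of SMC4 (ENSG00000136824), was nearly level at 118 and 117 CPM against 110.4 and 107 CPM, or -0.11 (SE 0.07). NCAPH, the kleisin of condensin I (ENSG00000121152), had 84.6 and 77.3 CPM against 75.3 and 76.6 CPM, or -0.09 (SE 0.07). Leaving out 1 library moved NCAPD2 between -0.22 and -0.10 and NCAPH between -0.15 and -0.03, the lowest without sgRNA Ctrl 2 and the highest without sgRNA Ctrl 1 in both. With all 4 libraries, none of the 5 condensin genes overlapped between the groups. The median log2 fold change over the 5 was -0.16, from -0.94 (SMC4) to -0.09 (NCAPH).

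Set side by side, both sgNPM1A libraries were below both controls in 5 of 5 condensin genes and in 2 of 5 cohesin genes (SMC3 and NIPBL). This separation on the lower side was found in 31.7% of all tested genes, against 31.4% on the higher side and 63.1% on either. The difference between the group means was larger than the difference within either group in 4 of 5 condensin genes, all but NCAPH, and in 2 of 5 cohesin genes. It was also larger in 13 of the 30 tested partner genes. The share over all tested genes was not counted, so nothing is read from these counts. With 2 libraries a group, the smallest two-sided p of an exact permutation is 0.333, so no gene was tested in that way. In 6 of the 10 genes, 3 of each complex, sgRNA Ctrl 1 was above sgRNA Ctrl 2 while sgNPM1A 1 was below sgNPM1A 2, and the same held for 18 of 30 partner genes described below. SMC4 and NIPBL were not among the 6.

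The order of the levels was taken per kilobase of coding length, since longer genes collect more reads. With sgRNA Ctrl, RAD21 was highest at 160 CPM per kb, followed by SMC4 at 110, NCAPD2 at 95.7, SMC1A at 50.2, SMC3 at 45.3, NCAPH at 36.4, SMC2 at 32.7, NIPBL at 26.3, STAG2 at 25.2 and NCAPG at 23.2 CPM per kb. The libraries of neighbours in this order overlapped for SMC1A with SMC3, for NIPBL with STAG2 and for STAG2 with NCAPG. With sgNPM1A the level of SMC4 was 57.4 CPM per kb, below NCAPD2 at 85.7, and NIPBL at 20.3 was below STAG2 at 24.3. No other gene changed place, no neighbours in the order overlapped, and the other levels ran from 153 CPM per kb for RAD21 to 18.9 for NCAPG. The order depended on the length used. Per kilobase of the whole canonical transcript, NCAPD2 (83.4), SMC4 (82.9) and RAD21 (82.6) overlapped at the top with sgRNA Ctrl, and NCAPH (13.4) was lowest.

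Ratios of mRNA between genes that partner or replace each other were taken in each library, as CPM per kb of coding length. Subunit proteins and assembled complexes were not measured here. SMC4 exceeded SMC2 by 3.32 and 3.39 times with sgRNA Ctrl and by 1.96 and 1.83 times with sgNPM1A. The log2 change of this ratio was -0.83, and leaving out 1 library at a time kept it between -0.88 and -0.78. SMC4 was the higher of the pair in all 4 libraries. NIPBL relative to its partner MAU2 was 0.529 and 0.490 with sgRNA Ctrl and 0.407 and 0.402 with sgNPM1A, a log2 change of -0.33. Relative to WAPL, which releases cohesin from DNA, NIPBL was at 0.935 and 1.14 against 0.819 and 0.764, a log2 change of -0.39 that was -0.24 without sgRNA Ctrl 2 and -0.52 without sgRNA Ctrl 1. Per kb of whole transcript NIPBL to WAPL was 1.33 and 1.62 against 1.17 and 1.09. NIPBL to MAU2 was then 1.13 and 1.04 against 0.866 and 0.855. Which of NIPBL and MAU2 was higher thus depended on the length used with sgRNA Ctrl. With sgNPM1A, MAU2 was higher by either length. Which of NIPBL and WAPL was higher depended on the length in every library but sgRNA Ctrl 2, where NIPBL was higher by either. MAU2 and WAPL themselves had log2 fold changes of -0.04 (SE 0.07) and 0.00 (SE 0.09), with overlapping groups.

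The ratio of NCAPG to NCAPG2, its condensin II counterpart, was 0.529 and 0.542 with sgRNA Ctrl and 0.421 and 0.408 with sgNPM1A, a log2 change of -0.37. NCAPD2 to NCAPD3 went the other way, at 2.61 and 2.98 against 3.13 and 3.08, a log2 change of 0.15. The ratio of NCAPH to NCAPH2 overlapped between the groups, at 0.743 and 0.660 against 0.702 and 0.729. Of NCAPH2, 17.5% of the 50-base words occur in other genes. The ratios of the 3 condensin I subunits to their condensin II counterparts thus did not share a sign. SMC1A to SMC3 also overlapped, at 1.18 and 1.03 against 1.12 and 1.26. Per kb of whole transcript this ratio was 0.681 and 0.595 against 0.647 and 0.723, so which gene was higher depended on the length used. STAG2 was above STAG1 in every library, by 5.26 and 7.31 times with sgRNA Ctrl and by 7.90 and 7.82 times with sgNPM1A. Its log2 change of 0.32 lay between 0.10 and 0.58 when 1 library was left out, and the low value in sgRNA Ctrl 1 came with the highest STAG1 count of the 4 libraries.

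**Figure D2:**
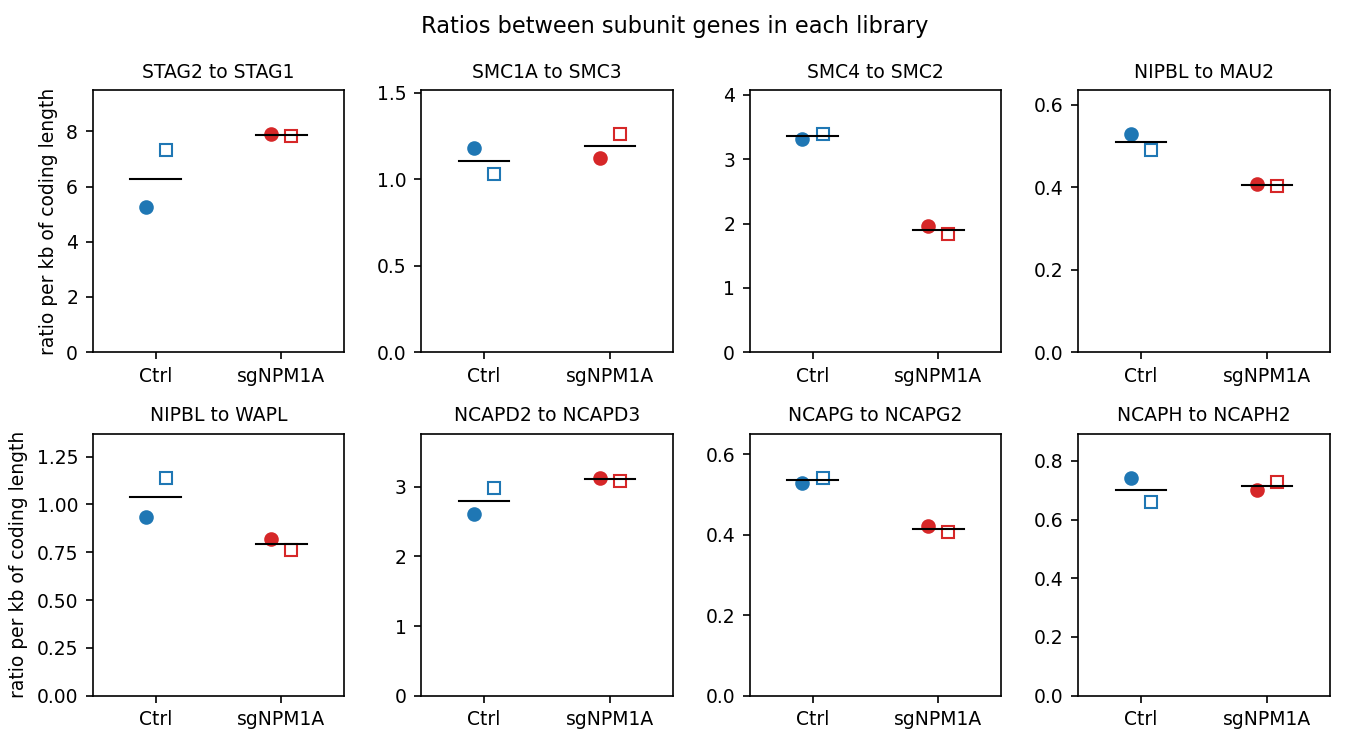
Ratio of 8 gene pairs (y axis, CPM per kb of coding length, linear from 0) in each library; blue is sgRNA Ctrl (Ctrl) and red sgNPM1A, circles are replicate 1, squares replicate 2 and bars group means. SMC4 to SMC2 goes from 3.36 to 1.89 on average, and NIPBL to MAU2 from 0.510 to 0.405, while SMC1A to SMC3 and NCAPH to NCAPH2 overlap.

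The other genes of the SMC complexes were taken from a list of 33 chosen for their roles, of which 30 were tested. In this list 1 gene rose and 1 fell past both thresholds, 6.67% of those tested, against 20.8% of all genes. The median log2 fold change was -0.05, with 12 above and 18 below 0. SMC1B, RAD21L1 and EID3, mostly known from germ cells, had at most 9 counts in a library and were not tested.

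Among the 16 tested cohesin partners, ESPL1 (separase, which cleaves RAD21) fell, from 91.1 and 81.9 CPM to 66.7 and 70.8 CPM. Its log2 fold change was -0.33 (SE 0.08, adjusted p = 0.00956, edgeR). The call was lost without sgRNA Ctrl 1 (-0.25) and without sgNPM1A 1 (-0.29, adjusted p = 0.134). STAG3, a STAG subunit known from meiotic cohesin, rose, with 37 and 43 counts against 87 and 64 and a log2 fold change of 0.80 (SE 0.24, adjusted p = 0.0284, edgeR). This is a low count, 14.4% of the 50-base words of STAG3 occur in other genes, and the call was lost with DESeq2 (adjusted p = 0.185), without either sgRNA Ctrl library and without sgNPM1A 1.

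STAG1, the alternative to STAG2, had the lowest fold change of the list, -0.43 (SE 0.18, adjusted p = 0.108, edgeR), and did not pass. Its counts were 493 and 313 with sgRNA Ctrl and 310 and 339 with sgNPM1A, and the groups overlapped. The fold change ran from -0.05 without sgRNA Ctrl 1 to -0.73 without sgRNA Ctrl 2, and it passed both thresholds without sgRNA Ctrl 2 (adjusted p = 0.00332), without sgNPM1A 2 (0.0310), with the replicate block (0.0386) and with no filter on low counts (0.00271). HDAC8, which deacetylates SMC3 so that cohesin can be reused, had a log2 fold change of 0.28 (SE 0.09, adjusted p = 0.0472, edgeR), short of the fold threshold. SGO2, a shugoshin that protects centromeric cohesin, had 0.24 (SE 0.10, adjusted p = 0.103, edgeR). It passed both thresholds without sgRNA Ctrl 1 (0.39, adjusted p = 0.0146) and was at 0.11 without sgRNA Ctrl 2. The median over the 16 cohesin partners was 0.

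Of the 7 partners of condensin 0 passed both thresholds by edgeR with TMM and the filter on low counts or by DESeq2, and 1 did by limma-trend; 1 had an unadjusted p under 0.05. That gene was NCAPD3, a HEAT-repeat subunit of condensin II, at 171 and 139 CPM with sgRNA Ctrl and 119 and 129 CPM with sgNPM1A. Its log2 fold change of -0.32 (SE 0.09, adjusted p = 0.0275, edgeR) was just short of the fold threshold, and it ran from -0.46 without sgRNA Ctrl 2 to -0.16 without sgRNA Ctrl 1. NCAPD3 passed both thresholds by edgeR with library size only (adjusted p = 0.0159), upper quartile (0.0227) and no filter on low counts (0.000189), without sgRNA Ctrl 2 (0.00257) and without sgNPM1A 2 (0.0256). NCAPG2 and NCAPH2, also of condensin II, had log2 fold changes of 0.07 (SE 0.08) and -0.12 (SE 0.07). The median of the 7 was -0.09. Of the 7 tested SMC5/6 and SMCHD1 genes, 0 passed both thresholds by edgeR with TMM and the filter, DESeq2 or limma-trend. In this group 1 gene had an unadjusted p under 0.05, and the median was -0.11. That gene was NSMCE3, with a log2 fold change of -0.32 (SE 0.08, adjusted p = 0.0172, edgeR), just short of the fold threshold. SMC4 was thus the lowest of the 40 subunit and partner genes tested.

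**Figure D3:**
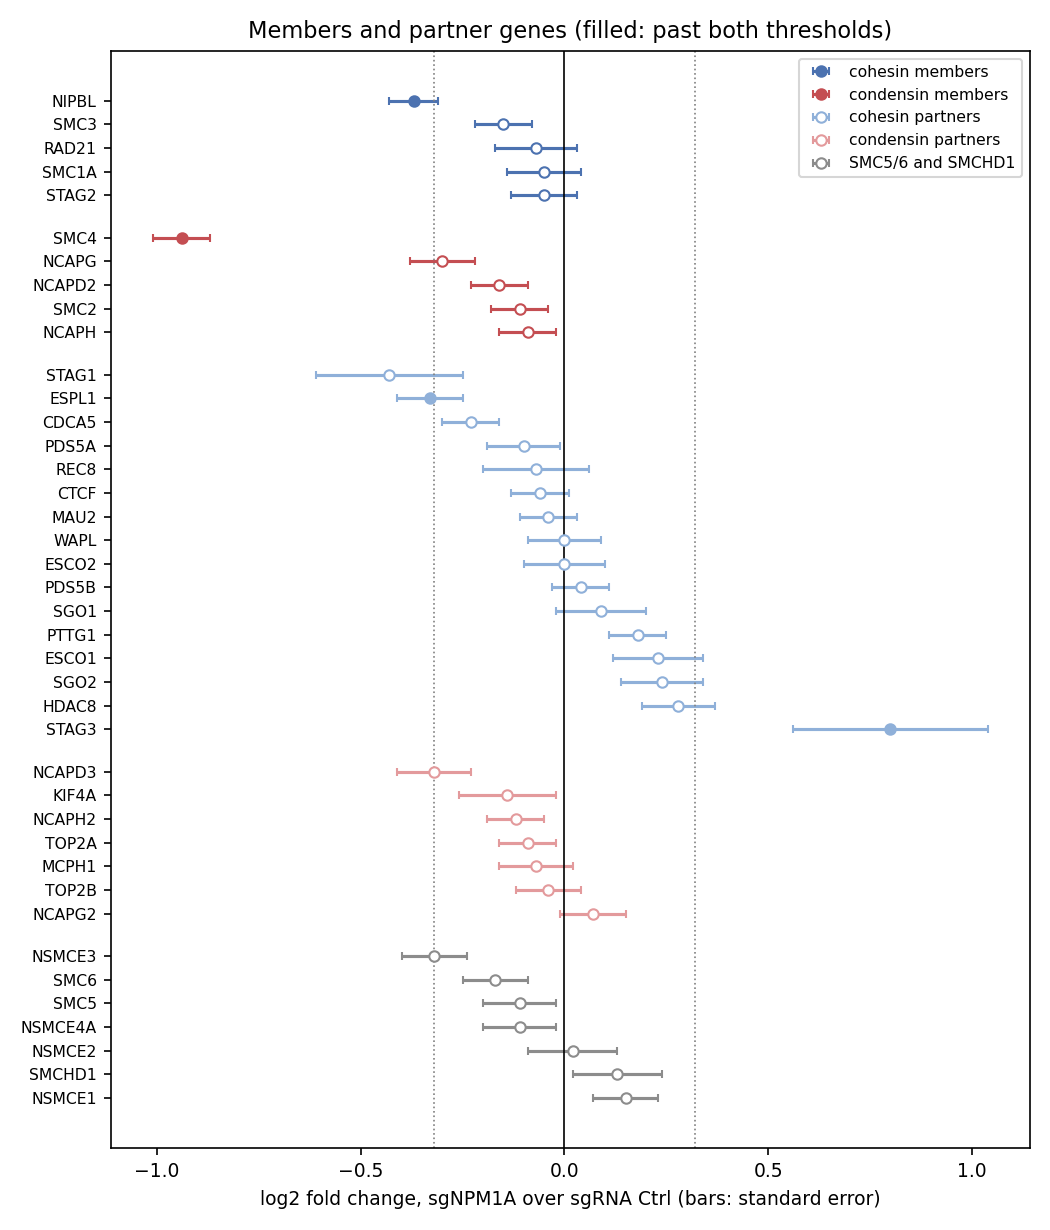
log2 fold change of sgNPM1A over sgRNA Ctrl (x axis; bars are standard errors) for the 10 subunit genes and 30 tested partner genes, grouped by complex. Filled marks passed an adjusted p of 0.05 and a fold of 1.25 (dotted lines, 0.32 on the log2 scale); SMC4 lies at -0.94 and STAG3 at 0.80, while most others lie within the dotted lines.

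As condensin and several partners are made in step with the cell cycle, genes of S phase and of G2/M were set beside them. Of 43 S phase genes, 38 were below 0, 1 rose and 7 fell, where 10.5% of all tested genes were called higher and 10.3% lower, and the median log2 fold change was -0.16. E2F8 (-0.85, adjusted p = 1.87e-05) and UNG (-0.41, adjusted p = 0.00230) led those that fell by adjusted p, and CDCA7 rose (0.38, adjusted p = 0.00242; all by edgeR). Of 52 G2/M genes other than the subunits, 28 were above and 24 below 0, 4 rose and 2 fell against the same shares of all genes, and the median was 0.02. CENPE (-0.65, adjusted p = 6.03e-05) and PIMREG (-0.34, adjusted p = 0.0219) fell, and ANP32E (0.56, adjusted p = 8.32e-05) and CKS2 (0.50, adjusted p = 0.000726) rose (edgeR). CDCA7 was not called without sgNPM1A 2 (0.33, adjusted p = 0.0646), and PIMREG was called neither with DESeq2 (adjusted p = 0.0607) nor without sgRNA Ctrl 1 (-0.24), sgNPM1A 1 (-0.32) or sgNPM1A 2 (-0.35). TOP2A, which works with condensin on mitotic chromosomes, had a log2 fold change of -0.09 (SE 0.07, adjusted p = 0.346, edgeR). The part of the cell cycle in the levels of SMC4 and the other subunit genes was not tested.

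The genes next to each subunit gene were read from RefSeq on GRCh38, as the nearest tested protein-coding gene on each side and any gene that overlaps. Of 34 such genes 21 were tested, 4 rose and 6 fell, 47.6% of those tested against 20.8% of all genes, and their median log2 fold change was -0.17. SMC4 lies between 2 genes that fell. IFT80, a subunit of the intraflagellar transport machinery, starts 425 bases from the start of SMC4 on the opposite strand. It had 157 and 184 counts with sgRNA Ctrl and 134 and 122 with sgNPM1A, a log2 fold change of -0.53 (SE 0.15, adjusted p = 0.0248, edgeR). TRIM59, a RING-domain protein gene that ends 549 bases beyond the end of SMC4 on the opposite strand, had 398 and 372 against 323 and 277 counts, or -0.48 (SE 0.12, adjusted p = 0.0128, edgeR). IFT80 was lost with DESeq2 (adjusted p = 0.149), without sgRNA Ctrl 2 (0.107) and without sgNPM1A 2 (0.157), and TRIM59 without sgRNA Ctrl 1 (0.0579) and without sgNPM1A 2 (0.143).

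A readthrough transcript, TRIM59-IFT80, overlaps all 35304 bases of SMC4 in RefSeq and had no match in the count table. Whether reads were counted by strand is not given in the sources used here, so antisense reads could not be separated from those of SMC4, and their part in its level was not tested.

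Inside SMC4 also lie MIR15B (160404588 to 160404685) and MIR16-2 (160404745 to 160404825), the genes of a pair of miRNAs with the same seed that target BCL2. Both had 0 counts in all 4 libraries, and small RNA was not measured separately. The mature 5p forms are shown as RefSeq gives them, with the shared seed (bases 2 to 8) in capitals.
hsa-miR-15b-5p: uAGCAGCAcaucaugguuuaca
hsa-miR-16-5p: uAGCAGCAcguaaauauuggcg

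Next to NIPBL the directions were mixed. CPLANE1, a ciliary gene 9255 bases beyond its end, fell (log2 fold change -0.47, adjusted p = 0.00586 by edgeR), but was not called without sgNPM1A 2 (-0.42, adjusted p = 0.0648). SLC1A3, a glutamate transporter gene on the other side at 188434 bases, rose from 93 and 99 counts to 392 and 509 counts, a log2 fold change of 2.11 (SE 0.16, adjusted p = 3.67e-06, edgeR). NCAPD2 and the divergent gene MRPL51, a mitochondrial ribosomal protein whose start is 840 bases away, had opposite signs, at -0.16 for NCAPD2 and 0.37 for MRPL51 (adjusted p = 0.00295, edgeR). MRPL51 was not called without sgRNA Ctrl 1 (0.32) or without sgNPM1A 1 (0.33, adjusted p = 0.0557). Beside NCAPH, ITPRIPL1 fell (-0.84, adjusted p = 0.00291, edgeR). Beside STAG2, OCRL rose (0.41, adjusted p = 0.00694, edgeR), at a distance of 5437602 bases. IQSEC2 beside SMC1A (-0.40, adjusted p = 0.0461) and the distant neighbours of SMC2, NIPSNAP3A (0.42, adjusted p = 0.0179) and GRIN3A (-0.79, adjusted p = 0.0229), also passed by edgeR, and all 3 calls were lost with DESeq2, without sgRNA Ctrl 2 (-0.32, 0.30 and -0.67) and without sgNPM1A 2 (-0.32, 0.38 and -0.61). IQSEC2 was also lost without sgNPM1A 1 (adjusted p = 0.0786), with the replicate block (0.0728), with limma-trend (0.0562) and with upper quartile (0.0501). NCAPG overlaps LCORL by 3679 bases, and LCORL had a log2 fold change of -0.17 (SE 0.14, adjusted p = 0.403, edgeR).

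**Figure D4:**
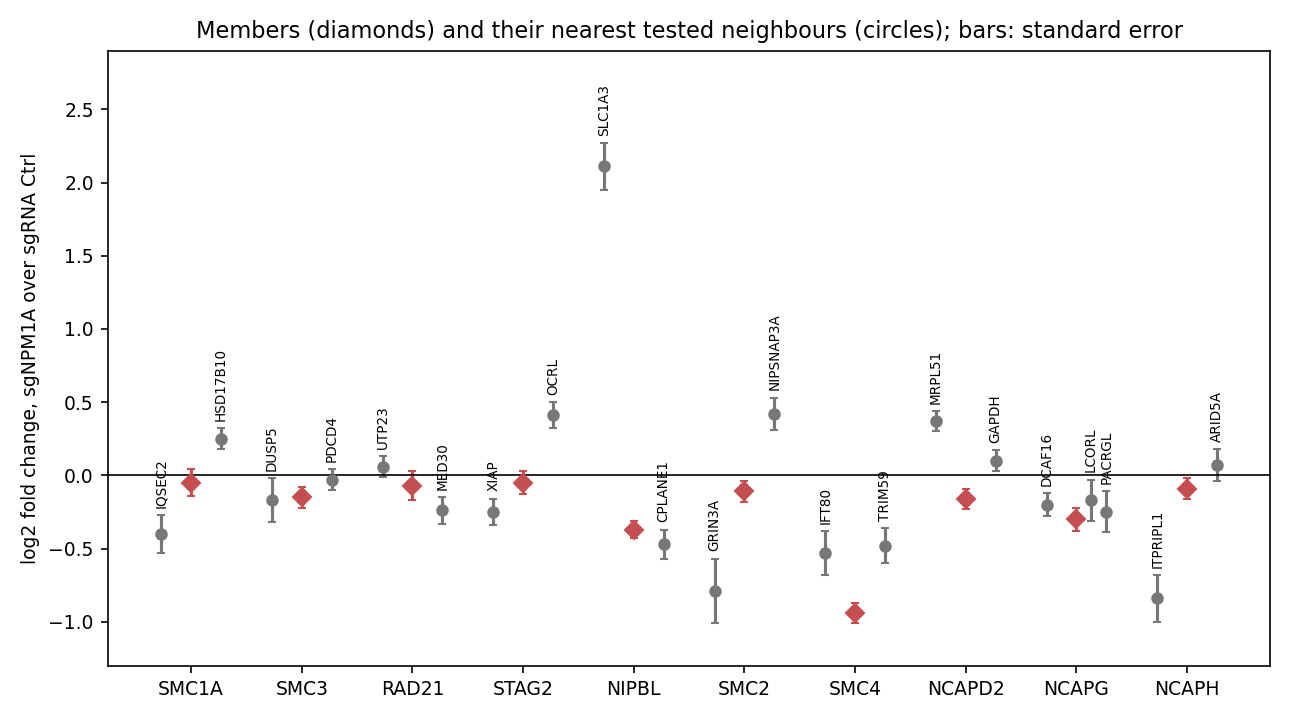
log2 fold change of sgNPM1A over sgRNA Ctrl (y axis; bars are standard errors) for each subunit gene (red diamonds) and its nearest tested or overlapping neighbours (grey circles, named). SMC4 at -0.94 stands with IFT80 at -0.53 and TRIM59 at -0.48, while NIPBL at -0.37 stands between SLC1A3 at 2.11 and CPLANE1 at -0.47.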

How the data were processed

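RNA-Seq was made from OCI-AML3 cells, 2 libraries with sgRNA Ctrl and 2 with sgNPM1A, grouped by their labels. The figure legend of the study calls them biological replicates, and p-values measure only the spread between these libraries. The labels give alpha-MEM and the paper RPMI as the medium. The authors mapped read pairs to hg38 with STAR, as the submitters' processing notes and the paper state, and deposited raw counts per Ensembl gene. The counting program, annotation release and strand setting are not given in the sources used here. The table holds 58037 genes, of which 55646 matched a symbol by identifier, and 0 rows with an ERCC spike-in name.

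From the counts, edgeR 4.0.16 in R 4.3.3 was run with filterByExpr (minimum count 10), TMM and its robust two-sided quasi-likelihood test. Calls needed an adjusted p (Benjamini-Hochberg, over all 15718 tested genes) under 0.05 and a fold of at least 1.25, the study's threshold. Words such as rose or fell are used of called genes. The common biological coefficient of variation was 0.0619. A count of 3 corresponds to 0.108 to 0.118 CPM, for counting error only. The 2 libraries of a group were not identical (mean chi-square per gene 9.31 with sgRNA Ctrl and 4.25 with sgNPM1A). Between 99.89% and 99.9% of counts lay on tested genes.

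The subunit genes and all lists were chosen with earlier results of these data known. Named were all 10 subunit genes, partner genes that were called or had the 3 highest or lowest fold changes, the genes of the ratio pairs, the 2 called S phase or G2/M genes (Seurat 5.3.0) with the smallest adjusted p in each direction, called neighbours, and NPM1. NSMCE3, TOP2A, LCORL, SMC3P1, SMC1B, RAD21L1, EID3, MIR15B, MIR16-2, TRIM59-IFT80 and the cell type markers are named outside this rule. Coding and transcript lengths and 50-base words were read from GENCODE on GRCh37, without its coordinates. Protein sequences were not analysed here. The fit was tested on simulated counts. The alternatives were DESeq2 1.42.0, limma-trend (limma 3.58.1) on quantile-normalized log2 CPM, RLE, library size only, upper quartile, no filter, at least 10 counts in every library, a replicate block, no fold threshold, a fold of 2, leaving out each library, and, added later, a crossed block and transcript length for the ratios.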

Additional observations from a re-analysis of the deposited data

How the results depend on the processing

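With 2 libraries per group, calls rest on the variance shared between genes, and genes with few counts (STAG3, IFT80, IQSEC2, GRIN3A) limit what could be called. With 1 library left out, the lone library of its group is assumed to vary like the others. Under every setting 1 cohesin gene and 1 condensin gene were called lower, except a fold of at least 2, which called 0 of either, and library size only, no fold threshold and leaving out sgRNA Ctrl 2, which called 2 condensin genes. The share of all tested genes called in either direction also moved with the setting. It was 20.8% by edgeR with TMM and the filter, 21.5% with library size only, 14.6% with DESeq2 and 12.3% with no filter. With no fold threshold it was 26%, and with a fold of at least 2 it was 6.36%. SMC4 lay between -1.0 and -0.86 and NIPBL between -0.39 and -0.35 with 1 library left out, and between -0.98 and -0.93 and between -0.41 and -0.37 under the other settings. The cohesin median ran from -0.18 to 0.05 with 1 library left out and was above 0 without sgRNA Ctrl 1. The condensin median was -0.18 with limma-trend, -0.20 with library size only, which moved the median of all genes to -0.04, and -0.22 to -0.11 with 1 library left out. With a fold of at least 2, 498 genes were higher and 502 lower, 0 partners were higher and 0 lower, 0 S phase genes were higher and 0 lower, 0 G2/M genes were higher and 0 lower, and 1 neighbour was higher and 0 lower. With no fold threshold, 2 partners were higher and 4 lower, and 15 S phase genes were lower. DESeq2 called 0 partners higher, 1 G2/M gene lower and 3 neighbours lower. Lower partners numbered 2 with limma-trend, 3 with library size only, 3 with upper quartile, 4 with no filter and 2 with the replicate block. NPM1 passed both criteria with limma-trend (-0.42, adjusted p = 0.00108). With no fold threshold (-0.22) it passed on the adjusted p alone. It passed neither criterion with the replicate block (-0.22, adjusted p = 0.156, edgeR). With 1 library left out its log2 fold change lay between -0.26 and -0.18, and its adjusted p was above 0.05 in some of these fits. The cause of these differences was not tested. Leaving out 1 library gave 0 to 1 partners higher and 1 to 3 lower, 0 to 1 S phase genes higher and 4 to 8 lower, 3 to 8 G2/M genes higher and 1 to 3 lower, and 1 to 6 neighbours lower. The log2 changes of ratios then ran from 0.10 to 0.58 for STAG2 to STAG1, -0.39 to -0.27 for NIPBL to MAU2, -0.52 to -0.24 for NIPBL to WAPL, 0.06 to 0.25 for NCAPD2 to NCAPD3 and -0.05 to 0.12 for NCAPH to NCAPH2. The labels number the libraries of each group 1 and 2, but across genes the deviations of same-numbered libraries had a correlation of -0.13 over 15718 genes and -0.523 over 8856 genes with a mean above 10 CPM, so the numbers were not taken as pairs. The replicate block gave 1637 genes higher and 1604 lower, against 1653 and 1619 without it. The crossed block, added after the correlation was seen, gave 1955 genes higher and 1918 lower and 2 partners lower.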
